A study of Rattus norvegicus with 10 samples.

Results

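The dystrophin-associated complex was examined through 8 of its genes, Dmd, Utrn, Dag1, Sgca, Sgcb, Sgcd, Dtna and Sntb1, in messenger RNA of fetal rat hearts. The members were taken from the deposited expression table wherever its gene column matched one of these symbols, which found all 8 among 18025 listed genes. Hearts came from fetuses of embryonic day 19.5 of wild-type (wt) genotype, carried by Sprague-Dawley dams that were 3 months old and had been mated with normoglycemic males. Dams of the HG (hyperglycemia) group were injected on 3 days with streptozotocin (STZ), which destroys pancreatic beta cells and so causes diabetes, dissolved in citric acid buffer, and reached a non-fasting blood glucose above 16 mM. Dams of the CON (control) group were given the buffer alone. Each group had 5 libraries. The labels do not give fetal sex, the number of dams, or whether 1 library was 1 heart, so the p-values measure only the spread between these libraries, which may share a litter. The study's methods describe pooled RNA and one of its legends isolated cardiomyocytes, whereas the labels name heart tissue and the values differed from library to library.

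Dystrophin is a long rod under the muscle cell membrane that holds actin filaments at one end and the membrane protein dystroglycan at the other, and dystroglycan in turn holds laminin in the matrix outside the cell. Sarcoglycans form a tight subcomplex beside dystroglycan, while dystrobrevins and syntrophins bind dystrophin on the inner side and recruit signalling proteins. In heart muscle the complex carries force sideways across the membrane and protects it during contraction, and inherited loss of several of its proteins leads to muscular dystrophy with cardiomyopathy.

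Promoter sequences of 3 members are shown because they frame the comparisons that follow: Dmd and its close relative Utrn, whose ratio changed, and Sgca, the member with the largest fall. Each is the 250 bases before a RefSeq transcript start on the GRCr8 build, written in the direction of the gene, with motif matches in capitals. The Dmd window lies at chrX:51205836-51206085 on the plus strand and is the most upstream of 3 windows listed for the gene, the Utrn window lies at chr1:9044488-9044737 on the minus strand, and the Sgca window lies at chr10:80416076-80416325 on the minus strand.
Dmd: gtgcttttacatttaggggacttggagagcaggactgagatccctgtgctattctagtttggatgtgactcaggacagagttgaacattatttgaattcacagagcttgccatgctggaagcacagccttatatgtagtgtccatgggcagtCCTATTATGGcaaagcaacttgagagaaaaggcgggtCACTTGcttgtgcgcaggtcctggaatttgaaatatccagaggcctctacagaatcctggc
Utrn: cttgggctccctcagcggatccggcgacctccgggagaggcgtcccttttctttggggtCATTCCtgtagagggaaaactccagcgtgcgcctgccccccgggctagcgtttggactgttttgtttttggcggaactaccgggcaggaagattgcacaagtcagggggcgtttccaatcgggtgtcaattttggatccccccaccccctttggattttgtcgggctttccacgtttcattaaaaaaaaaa
Sgca: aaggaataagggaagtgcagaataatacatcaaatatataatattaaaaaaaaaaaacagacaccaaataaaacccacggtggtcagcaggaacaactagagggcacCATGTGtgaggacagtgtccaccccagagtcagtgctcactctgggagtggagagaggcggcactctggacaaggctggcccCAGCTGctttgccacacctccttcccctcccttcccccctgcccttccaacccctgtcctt
Motifs known from muscle gene promoters were searched on both strands. The E-box was taken as CANNTG, which myogenic factors bind and which reads alike in either direction. For the MCAT box, the letters required were CATTCC, the element that TEAD factors bind. A GATA site was any run of GATAA, and the CArG box and the MEF2 site were searched by their usual consensus. No match overlapped another in the windows shown. Dmd held a CArG box that began 98 bases before the start and an E-box at 61 bases. Sgca held E-boxes at 143 and 61 bases, and Utrn held an MCAT box at 191 bases. Of the other members with a window read, Sgcd held an E-box at 46 bases and Sgcb held none of the 5 motifs. Among all 33469 windows of this length, 65.5% held an E-box, 12.1% an MCAT box, 23.5% a GATA site, 1.5% a CArG box and 2.96% a MEF2 site, so the E-box matches of Dmd, Sgca and Sgcd are what most windows have. A match describes letters only and is no evidence of binding, and Dag1 and Sntb1 had no window in the table.

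Levels are given as FPKM: the authors scaled the reads of each gene to its length and to the library. A comparison of genes with each other thus rests on the length used for each. Reads on genes, recovered from the steps between values, numbered 17639895 to 18240006 in CON libraries and 16672876 to 19109844 in HG libraries. Of the listed genes, 14542 reached an average of 0.1 FPKM over the 10 libraries and were compared as log2(FPKM + 0.1) with limma, and a change was called at a Benjamini-Hochberg adjusted p under 0.05 over all of them. All 8 members passed this minimum, which is a mean over both groups. The comparison asks how maternal hyperglycemia before birth is reflected in the heart's own transcripts. Over all genes tested, 40.1% were called in either direction, 28.4% as higher and 11.8% as lower in the HG group, and the groups did not overlap in 27.4%. Among the 8 members, 4 fell in the HG group (Sgca, Dtna, Dmd and Sgcb), 0 rose and 4 did not pass the threshold, and the same 4 had groups that did not overlap. At an unadjusted p under 0.05, 1 member (Dag1) was higher, and voom on the recovered reads also called 0 as higher. The median log2 fold change of the members was -0.23, beside 0.09 over all genes tested.

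**Figure D1:**
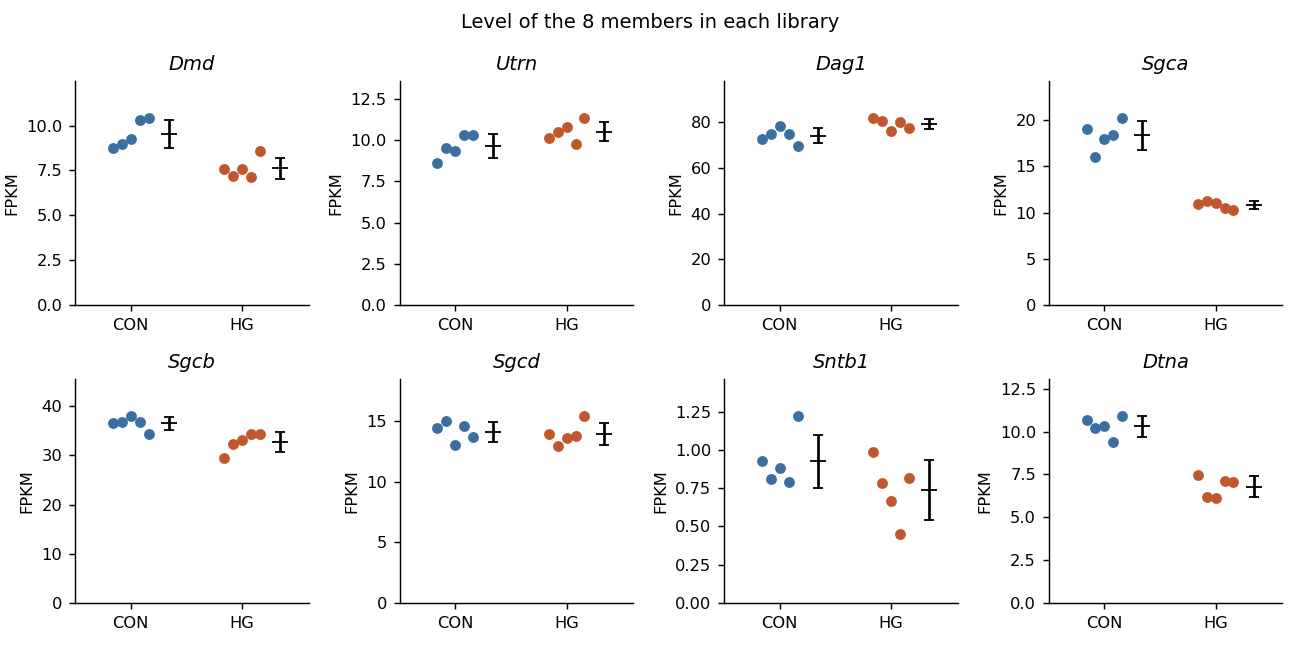
Level of each member (vertical axes, FPKM, starting at 0) in the 5 CON (blue) and 5 HG (orange) libraries, drawn as points, with the mean and SD of each group as a black bar beside them. Sgca, Dtna and Dmd have all HG points below all CON points, whereas Utrn, Dag1, Sgcd and Sntb1 overlap.

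Dmd encodes dystrophin itself. Its level was 8.76, 8.95, 9.26, 10.3 and 10.4 FPKM in the CON libraries and 7.60, 7.21, 7.59, 7.16 and 8.61 FPKM in the HG libraries, in replicate order. Every HG library lay below every CON library, though HG replicate 5 came within reach of CON replicate 1. The group means were 9.53 ± 0.757 FPKM and 7.63 ± 0.585 FPKM (SD, n = 5 each), or -0.32 as a log2 fold change (standard error 0.0681), with an adjusted p of 0.00308. Between 1519 and 2250 reads stood behind each value. Dmd gives rise to full-length and shorter dystrophins from separate promoters, and the gene-level value adds all of them together.

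Utrn encodes utrophin, an autosomal relative of dystrophin that binds many of the same partners and is abundant in fetal muscle. Its level was 8.63, 9.52, 9.35, 10.3 and 10.3 FPKM in the CON libraries and 10.1, 10.5, 10.8, 9.78 and 11.3 FPKM in the HG libraries. The groups overlapped, with CON replicates 4 and 5 at the height of the lower HG libraries. Utrn was not called: its log2 fold change was 0.12, with a 95% interval from -0.01 to 0.26, and its adjusted p was 0.125.

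Read against Dmd in the same library, Utrn separated the groups. The ratio of Utrn to Dmd FPKM lay between 0.986 and 1.06 in the CON libraries and between 1.31 and 1.45 in the HG libraries. In FPKM the 2 genes thus stood at nearly equal levels in each CON library, and Utrn stood above Dmd in all 5 HG libraries. These positions rest on the lengths implied by the FPKM, 21501 bases for Utrn and 12022 bases for Dmd. In reads Utrn lay above Dmd in both groups, at 3362 to 4039 beside 1907 to 2250 in the CON libraries. The shift of the ratio between the groups does not depend on these lengths. The log2 ratio was higher by 0.44 in the HG group (two-sided exact permutation test, p = 0.00794, the smallest value that 5 against 5 libraries allow; adjusted over 11 ratios 0.0125). A ratio taken within a library does not depend on how that library was scaled, but the fall of Dmd itself (-0.32) enters it. A gene that did not change also rises relative to Dmd, and the median over all genes tested was 0.09. The share of all genes whose ratio to Dmd separated the groups was not computed. A ratio can also move with the mix of cells, which was not tested. Relative to the cardiomyocyte markers described below, Dmd stood at 0.07, Utrn at 0.51 and the median gene at 0.48.

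Dag1 encodes the precursor of alpha- and beta-dystroglycan, the matrix receptor at the centre of the complex, and was the most abundant member. Its level was 72.7, 74.6, 78.4, 75.0 and 69.7 FPKM in the CON libraries and 81.6, 80.5, 76.3, 80.2 and 77.3 FPKM in the HG libraries. Only CON replicate 3 reached into the HG range, above HG replicates 3 and 5. The means were 74.1 ± 3.18 FPKM and 79.2 ± 2.25 FPKM (SD, n = 5 each), and the log2 fold change of 0.10 (95% interval 0.02 to 0.18) did not pass the threshold at an adjusted p of 0.0555. Without CON replicate 3 it passed the threshold, at 0.12 (adjusted p = 0.0307). Relative to Dmd, Dag1 was higher in every HG library (8.89 to 11.1) than in any CON library (6.67 to 8.39), a log2 difference of 0.41 (exact permutation p = 0.00794, adjusted 0.0125). As for Utrn, the fall of Dmd itself enters this difference.

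The sarcoglycans did not move together. Sgca, which encodes alpha-sarcoglycan, a protein of striated muscle, had the largest fall among the members, Sgcb fell slightly and Sgcd was not called. The level of Sgca was 19.1, 16.0, 18.0, 18.4 and 20.2 FPKM in the CON libraries and 10.9, 11.3, 11.1, 10.5 and 10.3 FPKM in the HG libraries. The groups were far apart, and the HG libraries lay within about 1 FPKM of one another. Mean levels were 18.4 ± 1.57 FPKM and 10.8 ± 0.421 FPKM (SD, n = 5 each), which puts the HG group at 0.589 of the CON group (log2 fold change -0.75, standard error 0.0599, adjusted p = 3.38e-06). RefSeq places Sgca so that it overlaps Col1a1, Hils1 and a long noncoding RNA on GRCr8, and the strand setting of the authors' counting is not given in the sources used here, so that reads of the shared stretch cannot be assigned with certainty. Col1a1, a collagen chain of fibroblasts, had a mean of 581 FPKM in the CON and 533 FPKM in the HG group (log2 fold change -0.12, adjusted p = 0.115).

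Sgcb encodes beta-sarcoglycan, around which the sarcoglycan subcomplex is assembled. It stood at 36.5, 36.8, 38.0, 36.7 and 34.4 FPKM in the CON libraries and at 29.4, 32.4, 33.1, 34.3 and 34.4 FPKM in the HG libraries. The lowest CON and the highest HG library met at the printed precision and were just apart before rounding. Its log2 fold change was -0.16 (standard error 0.0470, adjusted p = 0.0175), which puts the HG group at 0.896 of the CON group.

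Sgcd encodes delta-sarcoglycan, mutations of which cause dilated cardiomyopathy. It measured 14.4, 15.0, 13.0, 14.6 and 13.7 FPKM in the CON libraries and 13.9, 12.9, 13.6, 13.8 and 15.4 FPKM in the HG libraries. The groups covered the same range, with an HG library at each end of it. Its log2 fold change of -0.02 had a 95% interval of -0.15 to 0.10 and an adjusted p of 0.757, and leaving out HG replicate 2 turned the sign, to 0.0017. Relative to Dmd, Sgcd was higher in every HG library (1.78 to 1.91) than in any CON library (1.31 to 1.67), a log2 difference of 0.29 (exact permutation p = 0.00794, adjusted 0.0125). The fall of Dmd itself enters this difference too.

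The proportions within the sarcoglycan group shifted accordingly. Sgca stood at 0.436 to 0.589 of Sgcb in the CON libraries and at 0.302 to 0.373 in the HG libraries, a log2 difference of -0.60 (exact permutation p = 0.00794, adjusted 0.0125). Relative to Dmd, Sgca fell from 1.78 to 2.17 in the CON libraries to 1.19 to 1.56 in the HG libraries, a log2 difference of -0.44 with the same p. The ratio of Sgcb to Dmd overlapped between the groups, with a log2 difference of 0.16 (exact permutation p = 0.119, adjusted 0.131). The ratio of Sgcd to Sgcb differed by 0.13 on the log2 scale (exact permutation p = 0.0476) and did not pass the threshold after adjustment over the 11 ratios (0.0582). CON replicate 3 was the lowest library in that ratio, at 0.344 beside 0.397 to 0.409 in the others.

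Dtna encodes alpha-dystrobrevin, a dystrophin relative that binds syntrophins at the inner face of the membrane. Its level was 10.7, 10.2, 10.3, 9.36 and 10.9 FPKM in the CON libraries and 7.45, 6.19, 6.14, 7.10 and 7.07 FPKM in the HG libraries. No HG library came near the lowest CON library. The means of 10.3 ± 0.601 FPKM and 6.79 ± 0.591 FPKM (SD, n = 5 each) differed by -0.59 on the log2 scale of the fit (standard error 0.0673, adjusted p = 4.25e-05). Dtna also fell relative to Dmd, by 0.28 on the log2 scale (exact permutation p = 0.0317, adjusted 0.0437), with overlapping ranges of 0.911 to 1.22 in the CON and 0.812 to 0.993 in the HG libraries. That p rose to 0.0635 without CON replicate 1, 2 or 3 and without HG replicate 2, 3 or 5, at log2 differences from -0.27 to -0.24.

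Sntb1 encodes the beta-1 syntrophin, an adaptor that ties signalling proteins and channels to the complex. It was by far the lowest member, at 0.926, 0.810, 0.883, 0.790 and 1.22 FPKM in the CON libraries and 0.983, 0.783, 0.668, 0.453 and 0.815 FPKM in the HG libraries. CON replicate 5 was the highest and HG replicate 4 the lowest library, and the groups overlapped between 0.790 and 0.983 FPKM. Between 20 and 54 reads stood behind each value, the fewest of any member. The log2 fold change of -0.31 had a 95% interval of -0.70 to 0.08 (adjusted p = 0.197). The ratio of Sntb1 to Dmd differed by 0.01 on the log2 scale (exact permutation p = 0.968).

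In order of mean level, the CON group ran Dag1, Sgcb, Sgca, Sgcd, Dtna, Utrn, Dmd and Sntb1, from 74.1 to 0.926 FPKM. Dtna, Utrn and Dmd overlapped one another in turn, at means of 10.3, 9.63 and 9.53 FPKM, and the other neighbours were apart in all 5 libraries. In the HG group the order ran Dag1, Sgcb, Sgcd, Sgca, Utrn, Dmd, Dtna and Sntb1, from 79.2 to 0.740 FPKM. Here Sgca and Utrn overlapped (10.8 and 10.5 FPKM), as did Dmd and Dtna (7.63 and 6.79 FPKM). In FPKM Sgca thus stood above Sgcd in every CON library and below it in every HG library. Dtna stood above Dmd in the order of the CON means and below it in that of the HG means. The order of genes rests on their implied lengths, such as 5713 bases for Sgca and 10703 bases for Sgcd. In reads Sgca lay below Sgcd in both groups, at 1665 to 2045 beside 2453 to 2924 in the CON libraries. The overlap of Sgca with Col1a1 also bears on its level.

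Of 9 other genes of the complex examined, 7 were tested, of which 2 fell (Sspn and Nos1), 1 rose (Sgce) and 4 did not pass the threshold. The share called among the 7 was 42.9%, beside 40.1% over all genes tested, and their median log2 fold change was 0.15. A stricter rule, an absolute log2 fold change above 1 together with an adjusted p under 0.05, was met by 1.94% of all genes tested. On the log2(FPKM + 0.1) scale with limma, none of the 8 members and none of these 7 genes had a fold change of that size, whatever its p, and the values of the 7 ran from -0.84 for Nos1 to 0.41 for Drp2. Nos1 went past that size, with an adjusted p under 0.05, with a pseudocount of 0.01 (log2 fold change -1.61), with voom on the recovered reads (-1.69) and without HG replicate 2 (-1.06). The study, with its own test, counts Nos1 among its differentially expressed genes. The mean FPKM of Nos1 in the HG group was 0.412 of that in the CON group, a change that the added 0.1 FPKM shrinks.

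**Figure D2:**
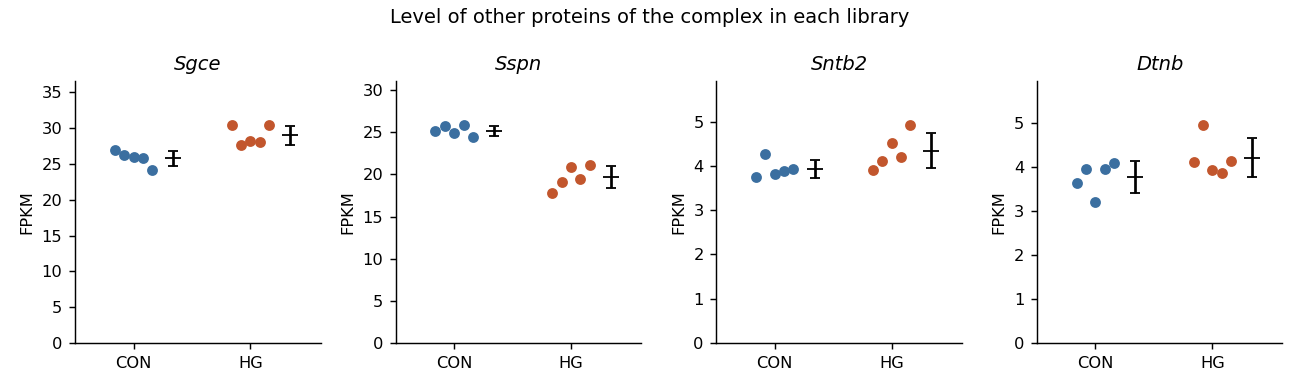
Level (vertical axes, FPKM, starting at 0) of 4 other genes of the complex that averaged above 1 FPKM, in the 5 CON (blue) and 5 HG (orange) libraries, with the mean and SD of each group as a black bar. Sspn drops from 24.4 to 25.9 FPKM in CON to 17.8 to 21.1 FPKM in HG libraries, and Sgce moves the other way by a small amount.

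Sspn, which encodes sarcospan, a membrane protein held by the sarcoglycans, fell from 24.4 to 25.9 FPKM in the CON libraries to 17.8 to 21.1 FPKM in the HG libraries (log2 fold change -0.36, adjusted p = 0.000140). The groups did not overlap.

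Sgce encodes epsilon-sarcoglycan, which takes the place of alpha-sarcoglycan in many other tissues. It was 24.1 to 26.9 FPKM in the CON libraries and 27.6 to 30.5 FPKM in the HG libraries, which is 0.17 as a log2 fold change (adjusted p = 0.00927). With median-of-ratios factors the value was 0.08 (adjusted p = 0.202) and with quantile normalization 0.11 (adjusted p = 0.0588), so the rise depended on the scaling. A ratio within a library cannot depend on the scaling. That of Sgca to Sgce was 0.612 to 0.841 in the CON libraries and 0.341 to 0.413 in the HG libraries. The log2 difference was -0.92 (exact permutation p = 0.00794, adjusted 0.0125). The fall of Sgca itself (-0.75) enters it. As both genes already separated the groups, in opposite directions, the ratio was bound to separate them and to reach that p. Whether the mix of cells moved this ratio was not tested.

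Dtnb, which encodes beta-dystrobrevin, had 3.77 ± 0.355 FPKM in the CON and 4.21 ± 0.438 FPKM in the HG group (SD, n = 5 each; log2 fold change 0.15, adjusted p = 0.181), with HG replicate 2 alone near 5 FPKM. The ratio of Dtna to Dtnb fell from 2.33 to 3.16 in the CON libraries to 1.24 to 1.81 in the HG libraries, a log2 difference of -0.75 (exact permutation p = 0.00794, adjusted 0.0125). The fall of Dtna itself enters this difference. For Sntb2, another syntrophin gene, the log2 fold change was 0.14 (adjusted p = 0.157). The remaining genes examined were barely present. Nos1, the neuronal nitric oxide synthase that syntrophin anchors, had 0.222 ± 0.0673 FPKM in the CON and 0.0913 ± 0.0868 FPKM in the HG group from 2 to 34 reads (log2 fold change -0.84, adjusted p = 0.0389). Its call was lost without CON replicate 1, 2, 3 or 5 or HG replicate 1, 3 or 5 (adjusted p 0.0551 to 0.0919), with a pseudocount of 1 (log2 fold change -0.16, adjusted p = 0.0534) and relative to cardiomyocyte markers (-0.45, adjusted p = 0.176). Sntg2 (log2 fold change 0.19, adjusted p = 0.630) had at most 38 reads, and without CON replicate 4 its value was -0.01. Drp2, a dystrophin relative of nerve (0.41, adjusted p = 0.132), had at most 28 reads. It was called with no trend in the fit (0.41, adjusted p = 0.0331) and relative to cardiomyocyte markers (0.80, adjusted p = 0.0034). Sntg1 had at most 2 reads in a library, and Sgcz had 0 reads in every library except HG replicate 5, which had 1.

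**Figure D3:**
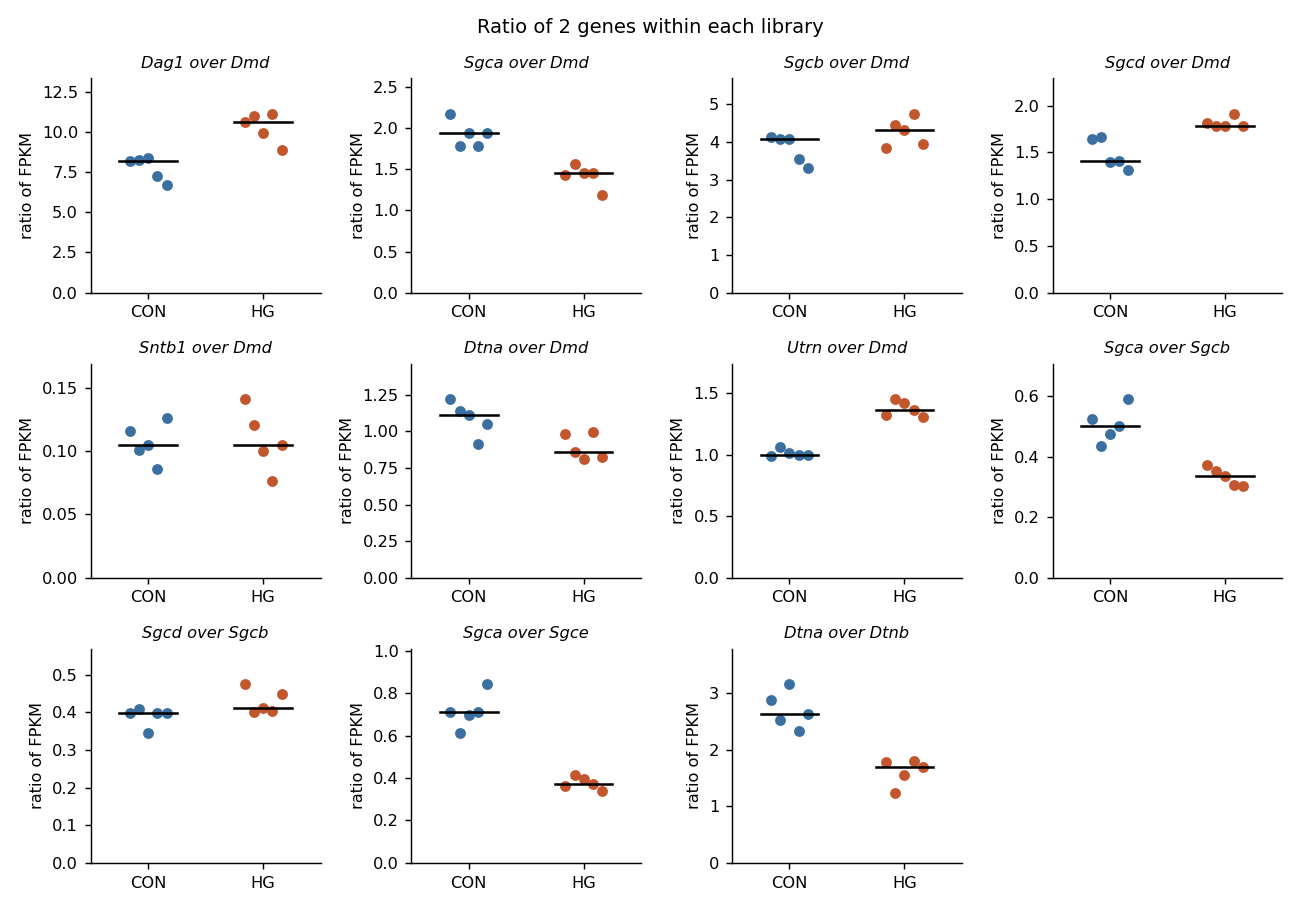
Ratio of the FPKM of 2 genes in the same library (vertical axes, starting at 0) for the 11 ratios computed, with the 5 CON (blue) and 5 HG (orange) libraries as points and the group median as a black line. The points of the groups do not overlap for Dag1, Sgca, Sgcd and Utrn over Dmd, Sgca over Sgcb, Sgca over Sgce and Dtna over Dtnb. The 11 ratios reuse the same genes, Dmd and Sgca most often, so they are not separate results. The share of all gene pairs whose ratio does not overlap between the groups was not computed.

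These values are shares of a whole library, and the heart libraries differed in more than the complex. All 8 cardiomyocyte markers (Tnnt2, Actn2, Myh7, Ttn, Myl2, Pln, Tnnc1 and Ryr2) fell in the HG group, with log2 fold changes from -0.62 to -0.24, and their summed level was 16700 to 17400 FPKM in CON and 13000 to 14600 FPKM in HG libraries. In bulk tissue, fewer cells of a type and less of an RNA per cell cannot be told apart. Set against the mean log2 level of these 8 markers in each library, a scaling chosen after the data were seen, 6 of 8 members were called, 4 of them as higher and 2 as lower, where 80.8% of all genes were called and the median of all genes moved to 0.48. Sgca (log2 fold change -0.37, adjusted p = 0.000137) and Dtna (-0.21, adjusted p = 0.0132) remained lower on that scale. With FPKM as deposited, however, Dtna (-0.59) lay within the range of the 8 markers themselves, and Sgca (-0.75) below it. Whether Dtna fell beyond the spread of the markers was not tested. On the marker scale Dmd was at 0.07, with a 95% interval from -0.07 to 0.21 (adjusted p = 0.307). Sspn was at 0.03, with one from -0.08 to 0.14 (adjusted p = 0.618). Sgcb turned to 0.23 (adjusted p = 0.000857), while Utrn, Dag1 and Sgcd were at 0.51, 0.49 and 0.36.

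**Figure D4:**
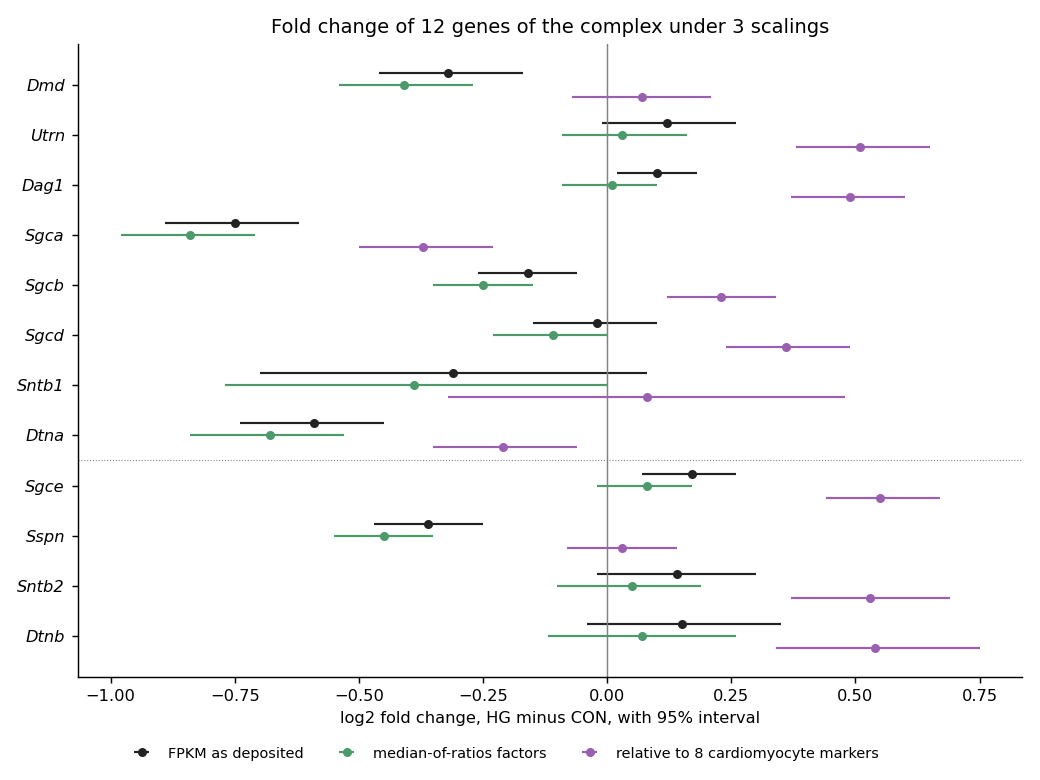
Log2 fold change of HG against CON (horizontal axis) with its 95% interval for the 8 members (above the dotted line) and 4 other genes of the complex, with FPKM as deposited (black), with median-of-ratios factors (green) and relative to 8 cardiomyocyte markers (purple). Sgca and Dtna stay below 0 on all 3 scales, and the intervals of Dmd and Sspn relative to the cardiomyocyte markers include 0.

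With median-of-ratios factors, a scaling by the typical gene, 33.2% of all genes were called, 15.6% as higher and 17.5% as lower, and the groups did not overlap in 23.1%. On that scale the same 4 members fell, and the same 4 did not overlap, with log2 fold changes of -0.84 for Sgca, -0.68 for Dtna, -0.41 for Dmd and -0.25 for Sgcb. Utrn and Dag1 were at 0.03 (adjusted p = 0.672) and 0.01 (adjusted p = 0.931). The median of the members was -0.32, beside 0.01 over all genes.

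Markers of other cells moved too, and their part in the results was not tested. Over all genes tested, 40.1% were called, 28.4% as higher and 11.8% as lower. Of 6 endothelial markers, 2 rose and 4 did not pass the threshold (summed level 248 to 270 FPKM in CON, 257 to 279 FPKM in HG libraries). Of 6 fibroblast markers, 2 rose and 3 fell (1160 to 1340 and 1050 to 1190 FPKM). Of 6 smooth muscle and pericyte markers, 2 rose and 2 fell (687 to 800 and 870 to 1070 FPKM). Of 6 macrophage markers, 2 rose and 1 fell (28.1 to 35.3 and 32.3 to 42.6 FPKM), and of 5 red cell precursor markers 4 fell (59.3 to 108 and 39.6 to 56.6 FPKM). Summed levels of the smooth muscle markers did not overlap, with the HG libraries on the higher side, and neither did those of the red cell markers, with the HG libraries on the lower side. Of 8 skeletal muscle markers, 5 were tested and 3 of them rose, at summed levels of only 5.99 to 8.95 and 8.70 to 14.2 FPKM. Of 5 Schwann cell and neuron markers, 1 passed the expression minimum and was not called (3.89 to 4.57 and 3.26 to 5.43 FPKM). No listed marker was at 0 in all libraries, and the high level of the cardiomyocyte markers fits the labelled tissue.

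Alpha-dystroglycan binds laminin only after a chain of enzymes has built a sugar on it. Of 17 genes examined for these enzymes, 6 rose, 2 fell and 9 did not pass the threshold, with a median log2 fold change of 0.10 beside 0.09 over all genes. The share called was 47.1%, beside 40.1% over all genes tested (28.4% higher and 11.8% lower). Pomt1, which with Pomt2 adds the first mannose, rose from 8.49 ± 0.324 FPKM to 11.3 ± 0.359 FPKM (SD, n = 5 each; log2 fold change 0.41, adjusted p = 3.52e-05). Rxylt1, which adds a xylose, rose by 0.38 in log2 terms (adjusted p = 0.000160), and Dpm2, a subunit of the mannose donor synthase, by 0.27 (adjusted p = 0.00662). Gmppb, which makes GDP-mannose, fell (log2 fold change -0.25, adjusted p = 0.00787), as did B3galnt2, which adds a galactosamine (-0.21, adjusted p = 0.0123). With median-of-ratios factors 3 rose and 2 fell, and Dpm2 was no longer called (adjusted p = 0.0528). On that scale 33.2% of all genes were called, 15.6% as higher and 17.5% as lower.

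Among 10 matrix ligands of dystroglycan, 3 rose, 3 fell and 4 did not pass the threshold. With median-of-ratios factors 2 rose and 5 fell, where 33.2% of all genes were called, 15.6% as higher and 17.5% as lower. With FPKM as deposited the share called was 60.0%, beside 40.1% over all genes tested (28.4% higher and 11.8% lower). Lama2, the laminin chain typical of muscle basement membrane, fell from 24.7 ± 1.19 FPKM to 20.3 ± 1.14 FPKM (SD, n = 5 each; log2 fold change -0.28, adjusted p = 0.000781). Lamb2, one of its partner chains, fell from 135 to 98.0 FPKM on average (-0.47, adjusted p = 2.62e-05). The laminin chains Lamb1 (0.02, adjusted p = 0.733) and Lamc1 (-0.10, adjusted p = 0.0679) were not called. Lama1, a laminin chain of early embryos, rose from a low 0.446 ± 0.0811 FPKM to 0.985 ± 0.220 FPKM (SD, n = 5 each; 0.98, adjusted p = 0.000606). The HG mean was 2.21 of the CON mean, and the study counts Lama1 among its differentially expressed genes. Agrn, which encodes agrin, rose by 0.27 in log2 terms (adjusted p = 0.00195). Lama4 (-0.08, adjusted p = 0.0357) was not called without CON replicate 1, 2, 3 or 4 or HG replicate 1 or 3 (adjusted p 0.0609 to 0.0856), nor with no trend in the fit (0.0744). Egflam, which encodes pikachurin (0.20, adjusted p = 0.0310), was not called without CON replicate 1, 3, 4 or 5 or HG replicate 2, 3, 4 or 5 (adjusted p 0.0512 to 0.0730), nor with median-of-ratios factors (0.211) or quantile normalization (0.286). Relative to the cardiomyocyte markers Lamb2 stood at -0.08 (adjusted p = 0.204), and Lama2 and Lama4 were above 0, at 0.11 and 0.31.

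Costameres are the ribs where the complex and the integrins tie the outer myofibrils to the membrane. Of 19 costamere genes, 2 rose, 6 fell and 11 did not pass the threshold. The share called was 42.1%, near the 40.1% over all genes tested (28.4% higher and 11.8% lower). The median log2 fold change of the list was -0.02, beside 0.09 over all genes. With median-of-ratios factors the 8 genes called all fell, where 33.2% of all genes were called, 17.5% as lower. Itga7, the laminin-binding integrin chain of muscle, fell from 2.06 ± 0.130 FPKM to 0.698 ± 0.0644 FPKM (SD, n = 5 each; log2 fold change -1.44, adjusted p = 1.2e-06). Cmya5, which encodes myospryn, fell too (log2 fold change -0.67, adjusted p = 0.000654), and Cav3, the caveolin of muscle, fell from 102 to 70.3 FPKM (-0.54, adjusted p = 1.15e-05). Relative to the cardiomyocyte markers Cav3 stood at -0.15 (adjusted p = 0.0519). Itgb1, the beta chain that pairs with Itga7, rose from 212 to 231 FPKM (0.12, adjusted p = 0.00800), and Ank3, an ankyrin, by a log2 fold change of 0.19 (adjusted p = 0.00575), but with median-of-ratios factors both lost the call (adjusted p = 0.535 and 0.124), as did Ank3 with quantile normalization (0.102).

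Of 10 membrane repair genes, 1 rose, 3 fell and 6 did not pass the threshold. The share called, 40.0%, was that of all genes tested (40.1%). With median-of-ratios factors the 5 genes called all fell, where 33.2% of all genes were called, 17.5% as lower. Trim72, which encodes mitsugumin 53, the muscle protein that gathers vesicles at a membrane tear, fell from 19.2 ± 4.10 FPKM to 11.2 ± 0.790 FPKM (SD, n = 5 each; log2 fold change -0.75, adjusted p = 0.000353). Cavin4, a caveolar protein of muscle, fell (log2 fold change -0.60, adjusted p = 0.00362), as did Anxa5, a membrane-binding annexin (-0.34, adjusted p = 0.000380). Relative to the cardiomyocyte markers Cavin4 stood at -0.21 (adjusted p = 0.172) and Anxa5 at 0.04 (adjusted p = 0.546). Myof, which encodes myoferlin, rose by 0.21 (adjusted p = 0.0296), a call lost with median-of-ratios factors (0.177) and quantile normalization (0.164) and without CON replicate 2, 3 or 4 or HG replicate 1, 3 or 5 (adjusted p 0.0513 to 0.0711).

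**Figure D5:**
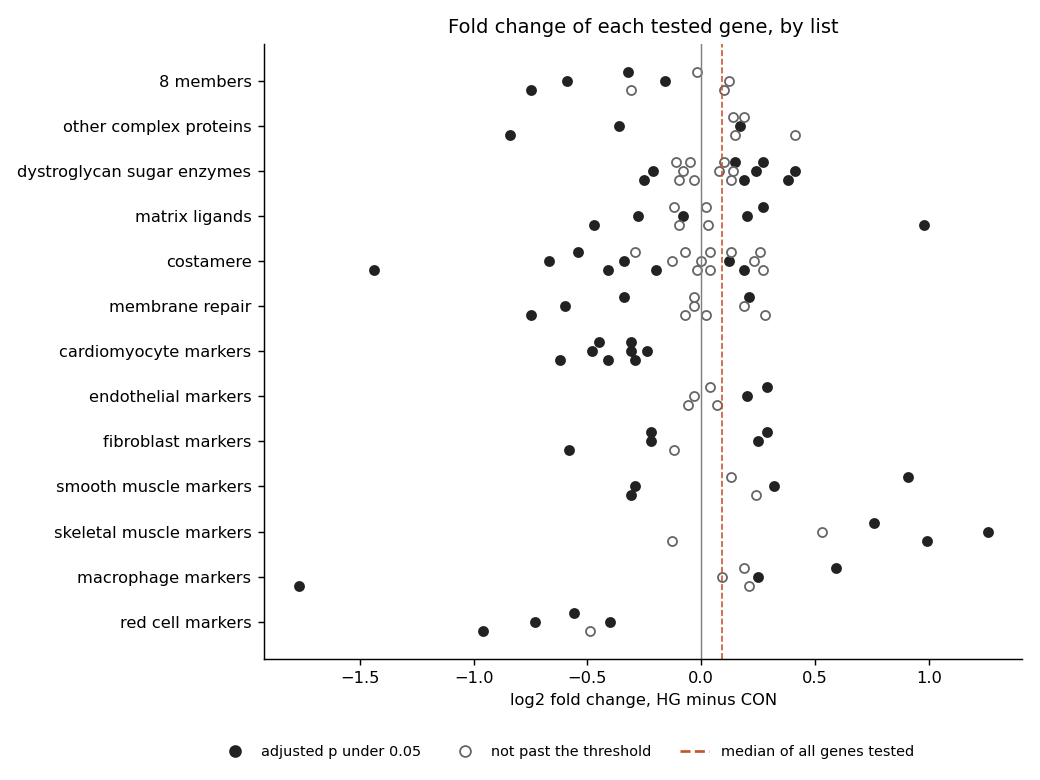
Log2 fold change of HG against CON (horizontal axis) of each tested gene, 1 point a gene, in the 8 members, 5 lists of partner genes and 7 lists of cell type markers, filled where the adjusted p was under 0.05. The orange line is the median of all genes tested, at 0.09, and all 8 cardiomyocyte markers lie left of 0, between -0.62 and -0.24.

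Within groups, some transcripts followed Dmd from library to library. After the mean of each group was subtracted, the genes with the highest Pearson correlation with Dmd over the 10 libraries, out of 11708 genes that averaged 1 FPKM or more, were Cacna1c (0.975), Slc4a7 (0.965), Ylpm1 (0.960), Colq (0.957) and Gpatch8 (0.956). These values are a description, from libraries that share preparation and depth, and they were given no p. The lengths implied by the FPKM of the 5 genes ran from 6943 to 12395 bases, beside a median of 3038 bases over the genes compared and 12022 bases for Dmd. Among the members, Utrn came 176th (0.860), with an implied length of 21501 bases. The others followed Dmd less, at 0.368 for Sgcd, 0.188 for Sgca, 0.052 for Dtna, -0.073 for Sgcb and -0.413 for Dag1.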

How the data were processed

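Messenger RNA of fetal rat hearts was compared between 5 CON and 5 HG libraries, grouped by the sample titles. The authors deposited FPKM for each library and no count table was used, so the DESeq test of the study's methods was not run. The submitters' processing notes name fastp, HISAT2, HTSeq, R 3.2.0 and the rat build mRatBN7.2. FPKM gives shares of a library, so that a change in a few abundant genes moves all others. All sample columns were used (0 unused). In 100% of values the FPKM was a whole multiple of 1 read (within 0.1 read), which gave the reads per gene.

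Genes that averaged 0.1 FPKM or more over all libraries entered the fit as log2(FPKM + 0.1), a scale that understates changes of low genes, with limma 3.58.1 (linear model, trend on expression, two-sided, no covariate) in R 4.3.3, and p-values were adjusted over all 14542 genes by Benjamini-Hochberg. A stricter rule, as in the study, also required an absolute log2 fold change above 1. Ratios of members were compared as log2 ratios of FPKM + 0.1 by two-sided exact permutation over the 252 divisions of the libraries. The fit was tested on simulated data. Python 3.11.15, pandas 2.3.3, numpy 2.4.6, scipy 1.17.1 and matplotlib 3.10.9 were used. Promoters came from RefSeq (GRCr8, 6 of 8 members with a window) and serve for sequence only, as the FPKM rest on another build.

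The members and lists were chosen with earlier results of these data known. Named genes were all 8 members, all other listed genes of the complex, up to 3 with the largest increase and up to 3 with the largest decrease past the threshold in each partner list, and the 5 genes most like Dmd. Col1a1, Lamb1, Lamc1 and the call changes of single genes were added after their values were seen. Some listed genes and 1 ratio fixed at the outset are not reported here. Alternatives changed the pseudocount to 1 or 0.01, dropped the filter or set it at 1 FPKM, rescaled the libraries by median-of-ratios factors, by quantiles or without hemoglobin genes, fitted limma with no trend or with array weights, and added the replicate number as a block or the level of Y chromosome genes. They also ran voom on the recovered reads and left out each library in turn. A scaling by cardiomyocyte markers was added after the data were seen.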

Additional observations from a re-analysis of the deposited data

Results flagged for a closer look

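Of 52 groups of 5 libraries examined, 2 held a library whose gap to its nearest neighbour was above 0.71 of the range of the group, a mark that chance passes in about 1 of 20 groups. Dtnb was highest in HG replicate 2, at 4.96 FPKM beside 3.87 to 4.13 FPKM in the other 4 libraries of the group. The ratio of Sgcd to Sgcb was lowest in CON replicate 3, at 0.344 beside 0.397 to 0.409.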

How the results depend on the processing

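The calls of Sgca and Dtna kept their direction and their side of the threshold in every alternative run, and those of Dmd and Sgcb in all except the cardiomyocyte marker scaling. That scaling gave 11746 calls over all genes against 5836, 16 in the dystroglycan sugar enzymes, 15 in the costamere list and 8 in the membrane repair list, and it moved log2 fold changes to 0.07 for Dmd, 0.49 for Dag1, 0.23 for Sgcb, 0.36 for Sgcd, 0.08 for Sntb1 and 0.51 for Utrn. On it the direction also turned for Sspn (0.03), Gmppb (0.14), B3galnt2 (0.17), Lama2 (0.11), Lama4 (0.31) and Anxa5 (0.04), and the falls of Lamb2 (-0.08), Cav3 (-0.15), Cavin4 (-0.21) and Nos1 (-0.45) lost their calls (adjusted p 0.0519 to 0.204), which follows from its construction, since the markers themselves fell. The share of calls that were higher in the HG group was 70.7% with FPKM as deposited, 47.1% with median-of-ratios factors, 53.0% with quantile normalization and 97.1% with the cardiomyocyte marker scaling. Leaving out each library in turn gave log2 fold changes of 0.07 to 0.12 for Dag1, -0.06 to 0.0017 for Sgcd and -0.01 to 0.43 for Sntg2, and between 5059 and 5620 calls over all genes. Log2 ratios then ran from -0.34 to -0.24 for Dtna over Dmd, 0.09 to 0.16 for Sgcd over Sgcb and -0.09 to 0.13 for Sntb1 over Dmd. The ratio of Sntb1 to Dmd was -0.03 with no pseudocount; the cause was not tested. With median-of-ratios factors 5 of the dystroglycan sugar enzymes were called, against 8, where the share over all genes was 33.2%, against 40.1%. Sntb1 gave no value under the filter at 1 FPKM. With 20 to 54 reads a library, depth limits what can be said of Sntb1.

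The replicate numbers did not pair the libraries: deviations of same-numbered libraries from their group means correlated at 0.108, -0.0749, -0.126, -0.0276 and 0.0144, and 0 of 5 CON libraries were most like their own number. With the number as a replicate block, 5096 genes and 4 of 8 members were called, and the calls of Nos1 (adjusted p = 0.0783), Lama4 (0.109) and Egflam (0.0620) were lost. Sign flips of the 5 paired ratios cannot go below an exact p of 0.0625.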
